A study of Mus musculus with 14 samples.

Results

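The kinesin genes described here are the 38 protein-coding genes whose symbol is Kif followed by a digit and which were listed in both deposited tables, out of 35389 gene identifiers in the table of staged oocytes and 35341 symbols in the table of the rescue experiment. Polyadenylated RNA was sequenced from mouse oocytes in 14 libraries, 2 for each of 7 groups. In the staged set, oocytes with a non-surrounded nucleolus (NSN, the earlier and transcribing state of the grown oocyte) and with a surrounded nucleolus (SN, the later and largely silent state) each overexpressed either mCherry, a red fluorescent protein that served as the control, or Rnaseh1, a nuclease that cuts the RNA of RNA:DNA hybrids (R-loops). In the rescue set, whose labels give no stage, oocytes overexpressed mCherry, Rnaseh1, or Rnaseh1 and Supt6 together, the last being a histone chaperone that travels with RNA polymerase II. Strain, age, the number of oocytes per library and the means of overexpression are not given in the sources used here. Whether a group's replicates are separate animals, pools or preparations of 1 pool is not stated either, so p-values measure only the spread between libraries.

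Kinesins are motor proteins that use ATP to walk along microtubules or, in some classes, to take microtubule ends apart. In dividing cells they build the spindle, move chromosomes and organise the central spindle of anaphase, and elsewhere they carry organelles, vesicles and ciliary cargo. A grown oocyte has no spindle while it is arrested, and it stores mRNA for the meiotic divisions that follow.

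Values are in TPM, a unit of transcript abundance that is scaled to transcript length and to the library, so levels can be compared between genes. They keep no read depth, and no counting error can be given. Of the 38 genes, 24 had 2 or more libraries of a table with a TPM of 1 or above and are described, 23 of them in both tables and Kif13a in the rescue table alone. The other 14 (Kif12, Kif19a, Kif1a, Kif1c, Kif21a, Kif21b, Kif26a, Kif26b, Kif27, Kif28, Kif2b, Kif5a, Kif6 and Kif7) did not exceed 1.13 TPM in the staged set or 1.31 TPM in the rescue set, and 2 of them, Kif2b and Kif7, were listed at 0 in every library. By role, 12 of 13 kinesins of the spindle and chromosomes were described, 5 of 9 of the cilium, 7 of 13 of organelle and vesicle transport (6 in the staged set) and 0 of the 3 others. The antisense gene Kif16bos is not protein-coding and the gene of the KIF-binding protein was listed under different symbols in the tables, so both were left out.

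The promoters of 4 members are shown because these genes stand for the patterns described below. Kif22 was among the genes lower with Rnaseh1 among the rescue libraries, Kif3a is a ciliary motor of that group, Kif2a was higher by the most, and the direction of Kif20b depended on the treatment of GC content. Each window of 300 bases runs from 250 bases before to 50 bases after the RefSeq transcript start (GRCm38.p6) and is printed 5′ to 3′ on the strand of the gene. Capitals mark the cell cycle homology region motif TTTGAA and the CCAAT box, each searched on both strands, so that TTCAAA and ATTGG are the same motifs read on the other strand. The positions are chr7:127042371-127042670 on the minus strand for Kif22, chr11:53567119-53567418 on the plus strand for Kif3a, chr13:107022065-107022364 on the minus strand for Kif2a and chr19:34922108-34922407 on the plus strand for Kif20b.
Kif22: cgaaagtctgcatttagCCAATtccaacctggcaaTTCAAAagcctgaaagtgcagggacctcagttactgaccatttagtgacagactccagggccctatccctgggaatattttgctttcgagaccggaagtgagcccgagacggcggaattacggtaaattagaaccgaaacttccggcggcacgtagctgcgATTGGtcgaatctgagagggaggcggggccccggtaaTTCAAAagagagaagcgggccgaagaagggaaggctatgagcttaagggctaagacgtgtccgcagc
Kif3a: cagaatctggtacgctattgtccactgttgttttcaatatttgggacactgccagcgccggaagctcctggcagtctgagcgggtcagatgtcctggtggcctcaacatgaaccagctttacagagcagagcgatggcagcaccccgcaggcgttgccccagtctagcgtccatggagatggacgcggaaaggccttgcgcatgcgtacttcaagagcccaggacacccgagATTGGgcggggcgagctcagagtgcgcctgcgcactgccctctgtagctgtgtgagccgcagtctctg
Kif2a: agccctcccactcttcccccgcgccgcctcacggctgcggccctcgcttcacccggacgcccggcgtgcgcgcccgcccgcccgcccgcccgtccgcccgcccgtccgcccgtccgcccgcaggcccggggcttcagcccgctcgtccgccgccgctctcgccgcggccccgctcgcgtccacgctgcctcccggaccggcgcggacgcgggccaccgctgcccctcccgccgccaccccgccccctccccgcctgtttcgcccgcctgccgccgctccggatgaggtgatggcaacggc
Kif20b: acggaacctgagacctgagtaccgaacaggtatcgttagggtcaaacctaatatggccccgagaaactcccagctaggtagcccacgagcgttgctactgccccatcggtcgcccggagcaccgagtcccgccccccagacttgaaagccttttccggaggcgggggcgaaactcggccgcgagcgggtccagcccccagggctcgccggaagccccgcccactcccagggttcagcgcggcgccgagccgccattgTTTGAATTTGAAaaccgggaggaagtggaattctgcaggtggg
The Kif22 window held 2 TTTGAA and 2 CCAAT motifs, the Kif3a window 1 CCAAT box, and the Kif20b window 2 TTTGAA motifs side by side. The Kif2a window held neither motif and had a GC content of 82.7%, against 53.0% for Kif22, 59.7% for Kif3a and 63.7% for Kif20b. A RefSeq window was found for 21 of the 24 described members, of which 9 held TTTGAA and 10 held CCAAT. For each member the window nearest its annotated gene start was taken. For Kif17, Kif2c and Kif14 the transcript start lay 11816, 3867 and 1505 bases from that gene start. Over all 32851 windows of the same length, which were not reduced to 1 per gene, 17.9% held TTTGAA and 37.4% held CCAAT. A match describes the letters of a window only.

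Overexpressed genes and markers of cell type were used to check the labels. Rnaseh1 was at 137 and 108 TPM in NSN mCherry, 745 and 229 in NSN Rnaseh1, 81.0 and 131 in SN mCherry, and 1361 and 1083 in SN Rnaseh1. In the rescue set it was at 125 and 114 TPM with mCherry, 1243 and 625 with Rnaseh1, and 2270.5 and 2017 with Rnaseh1 and Supt6. Supt6 was at 28.2 and 20.97 TPM in the last group against 2.55 to 3.28 TPM in the other rescue libraries. Of 12 oocyte markers, 11 had a TPM of at least 1 in every library, and of 14 granulosa and cumulus markers 2 to 4 did in any 1 library, with a summed level of 24.9 to 55.45 TPM that came mostly from Cyp19a1 (12.98 to 46.1 TPM) and Nr5a2 (4.20 to 8.19 TPM). Kitl was at 0.83 to 6.64 TPM in the staged set and 1.22 to 2.53 TPM in the rescue set. Fshr reached 1.18 TPM in the staged set and 1.3 TPM in the rescue set. In the staged set Gja1 reached 1.17 TPM and Hsd17b1 1.05 TPM. The remaining markers of this list stayed below 1 TPM in every library. Among them Foxl2, Amh and Amhr2, which define granulosa cells, were listed at 0 in all 14 libraries.

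Kif23, a subunit of the centralspindlin complex that bundles midzone microtubules, was the most abundant kinesin mRNA in 12 of the 14 libraries and held 30.3% to 45.4% of the summed kinesin TPM. The exceptions were NSN Rnaseh1 replicate 2, where Kif20b, a relative of Kif23 that acts in cytokinesis, led with 32.6%, and SN mCherry replicate 2, where Kif22, a chromosome-bound motor that pushes chromosome arms away from the poles, led with 30.9%. The 5 genes with the highest mean TPM were Kif23, Kif20b, Kif22, Kif2a and Kif18a in the staged set and Kif23, Kif22, Kif20b, Kif17 and Kif2c in the rescue set. Among the rescue libraries the kinesin mRNAs summed to 1911 and 1960.4 TPM with mCherry, 1168 and 1175 TPM with Rnaseh1, and 1687 and 1734 TPM with Rnaseh1 and Supt6. The Rnaseh1 libraries lay below the other rescue libraries, and the groups did not overlap.

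In the rescue set, the chromosome motor Kif22, the ciliary motor Kif17, the microtubule depolymerase Kif2c and the cytokinesis motor Kif20a fell by 2.71 or more on the log2 scale with Rnaseh1, and Kif2a, another depolymerase of the same class as Kif2c, rose by 2.94. With Supt6 added, these 5 genes moved back by 2.44 to 3.19 on the log2 scale towards the mCherry level. They were picked by their difference between Rnaseh1 and mCherry. Both comparisons share the Rnaseh1 libraries, so the move back is not independent of that choice. Of all genes, 41.6% rose and 17.4% fell with Supt6 added to Rnaseh1. Of the 24 members tested, 3 rose and 13 fell with Rnaseh1 against mCherry (limma, adjusted p under 0.05), where 20.3% of all 12859 genes tested rose and 46.2% fell. The share of members called in either direction, 66.7%, was near the 66.5% of all genes. Groups did not overlap for 4 members that were higher and 16 that were lower, where 26.4% and 54.8% of all genes were so. The median log2 fold change was -0.77 over the members and -0.52 over all genes tested. TPM are shares of a library, so neither the amount of RNA per oocyte nor the number of oocytes can be read from them.

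**Figure D1:**
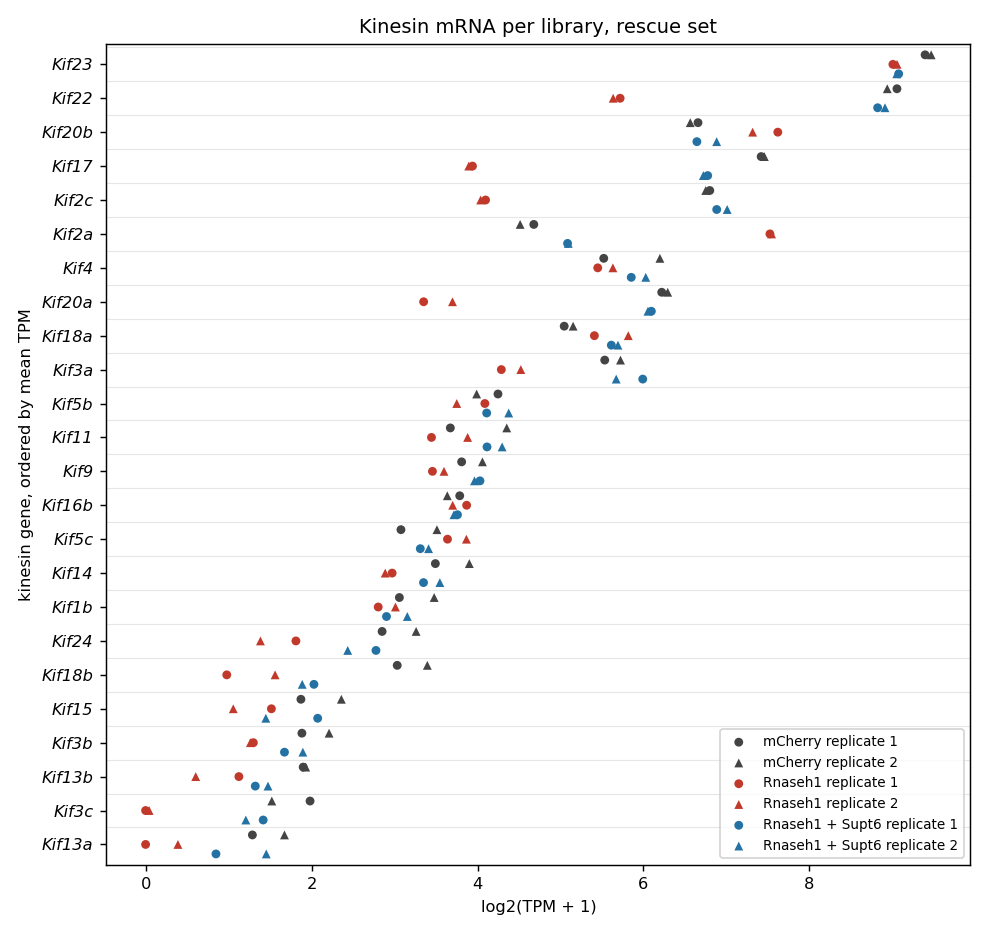
Level of each of the 24 described kinesin mRNAs in the 6 rescue libraries, as log2(TPM + 1) on the horizontal axis, with genes ordered by their mean TPM and 1 symbol per library. Kif22, Kif17, Kif2c and Kif20a are far lower and Kif2a far higher in both Rnaseh1 libraries than in the other 4 libraries.

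Among the spindle and chromosome kinesins of the rescue set, 6 of 12 fell and 3 rose with Rnaseh1, where 46.2% and 20.3% of all genes did. The median over these kinesins was -0.58. Median centring gave 4 lower and 3 higher with a median of 0.0021, quantile normalization 5 and 3 with -0.10, and the removal of the GC trend 9 and 1 with -1.06. With the GC trend removed the median over all genes was -0.59. Kif22 (chr7:127027729-127042471, minus strand, GRCm38) stood at 531 and 489 TPM with mCherry, 51.7 and 48.7 TPM with Rnaseh1, and 451 and 480.0 TPM with Rnaseh1 and Supt6. Both Rnaseh1 libraries were far below the other 4, and the Supt6 libraries were just below those of mCherry. Its group means were 509.9 ± 29.2, 50.2 ± 2.10 and 466 ± 20.3 TPM (SD, n = 2). Rnaseh1 against mCherry gave a difference of -3.32 on the log2 scale (SE 0.09, adjusted p = 6.89e-07).

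Kif2c (chr4:117159639-117182639, minus strand), which removes tubulin from microtubule ends at wrongly attached kinetochores, stood at 110.3 and 107 TPM with mCherry, 16.1 and 15.4 TPM with Rnaseh1, and 117 and 128 TPM with Rnaseh1 and Supt6. Kif2c was low in both Rnaseh1 libraries, and the Supt6 libraries were above all others. Its log2 fold change was -2.71 (SE 0.11, adjusted p = 1.63e-06). Kif20a, which carries the chromosomal passenger complex to the central spindle, stood at 73.5 and 77.3 TPM with mCherry, 9.20 and 11.98 TPM with Rnaseh1, and 67.3 and 65.4 TPM with Rnaseh1 and Supt6. It fell by 2.73 (SE 0.15, adjusted p = 5.6e-06), without overlap between the groups. Exons of Kif20a overlap those of Cdc23 on the other strand over 1271 bases, and strand use in the counting is not given in the sources used here, so reads of the overlap cannot be assigned. Cdc23 fell by 0.95 (adjusted p = 0.00301).

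Kif18b, which acts at the plus ends of astral microtubules, was low in every library. It stood at 7.18 and 9.52 TPM with mCherry, 0.97 and 1.95 TPM with Rnaseh1, and 3.08 and 2.7 TPM with Rnaseh1 and Supt6, so that the Supt6 libraries lay between the other groups. Its log2 fold change was -1.94 (SE 0.29, adjusted p = 0.000806). Kif23 stood at 671 and 706 TPM with mCherry, 513 and 531 TPM with Rnaseh1, and 538 and 529.6 TPM with Rnaseh1 and Supt6. The mCherry libraries were the highest, and those of the other groups overlapped. Kif23 fell by 0.40 (SE 0.07, adjusted p = 0.00168), and its value was 0.19 and not called with median centring, -0.76 with quantile normalization and -0.73 with the GC trend removed, both of the last called lower. Kif14, which acts late in cytokinesis, fell by 0.77 (SE 0.22, adjusted p = 0.0162). Its value was -0.18 with median centring and 0.012 with quantile normalization, neither called, and -1.09 and called lower with the GC trend removed, and without mCherry replicate 2 Kif14 was not called.

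Kif2a (chr13:106958996-107022126, minus strand), which takes microtubules apart at spindle poles, stood at 24.6 and 21.8 TPM with mCherry, 183 and 186 TPM with Rnaseh1, and 32.9 and 33.1 TPM with Rnaseh1 and Supt6. Both Rnaseh1 libraries were far above the other 4, and the groups did not overlap. It rose by 2.94 (SE 0.11, adjusted p = 1.49e-06), and with the trend in GC content removed by 1.90. Its exons overlap those of Dimt1 on the other strand over 1229 bases, and Dimt1 rose by 0.32 (adjusted p = 0.0349).

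Kif20b (chr19:34922361-34975745, plus strand) stood at 99.9 and 93.6 TPM with mCherry, 195.5 and 158 TPM with Rnaseh1, and 99.0 and 117 TPM with Rnaseh1 and Supt6. Kif18a, which damps the movements of aligned chromosomes, stood at 32.0 and 34.55 TPM with mCherry, 41.5 and 55.4 TPM with Rnaseh1, and 47.9 and 50.7 TPM with Rnaseh1 and Supt6. For Kif20b the Rnaseh1 libraries were the highest, and for Kif18a both other groups were above mCherry. In the TPM as deposited, Kif20b rose by 0.86 (SE 0.13, adjusted p = 0.00108) and Kif18a by 0.51 (SE 0.16, adjusted p = 0.0231). With the GC trend removed, Kif20b stood at -0.13 (adjusted p = 0.456) and Kif18a at -0.54 (adjusted p = 0.0141). The median over all genes was -0.59 in that setting, so Kif18a lay near it and Kif20b above it. Without Rnaseh1 replicate 2, mCherry replicate 1 or mCherry replicate 2, Kif18a no longer passed, at 0.31, 0.46 and 0.57.

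Kif4, Kif11 and Kif15 did not pass against mCherry. Kif4, which compacts chromosomes and works with Prc1 at the midzone, was between 42.7 and 72.4 TPM over the 6 rescue libraries, Kif11, the motor that separates spindle poles, between 9.89 and 19.4 TPM, and Kif15, which can back up Kif11, between 1.08 and 4.13 TPM. Exons of Kif4 overlap those of Pdzd11 on the other strand over 832 bases. Pdzd11 was at 191 to 258 TPM over the 6 rescue libraries, above Kif4. Its log2 fold change with Rnaseh1 against mCherry was -0.36 (adjusted p = 0.00589). With the GC trend removed, Kif11 (-1.13) and Kif15 (-1.56) passed as lower, where the median over all genes was -0.59.

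Of the 5 ciliary kinesins, 4 fell and 0 rose with Rnaseh1, where 46.2% of all genes fell and 20.3% rose. With median centring and with quantile normalization 3 fell. The 4 include Kif3b, which was moved here from the transport kinesins after its values were seen. Kif17 (chr4:138250435-138301967, plus strand), a motor of cilia and dendrites, stood at 170.0 and 175 TPM with mCherry, 14.3 and 13.9 TPM with Rnaseh1, and 108 and 104.5 TPM with Rnaseh1 and Supt6. The groups did not overlap, and the Supt6 libraries lay between the others. It fell by 3.52 (SE 0.10, adjusted p = 6.92e-07). Kif3a (chr11:53567379-53601967, plus strand), a subunit of the heterotrimeric motor of intraflagellar transport, stood at 45.3 and 51.8 TPM with mCherry, 18.5 and 21.97 TPM with Rnaseh1, and 62.6 and 49.95 TPM with Rnaseh1 and Supt6. Its Rnaseh1 libraries were below the other 4, and it fell by 1.22 (SE 0.16, adjusted p = 0.000457). Kif24, a depolymerase that restrains cilium assembly, fell by 1.46 (SE 0.28, adjusted p = 0.00291). The partner subunit of Kif3a, Kif3b, stood at 2.69 and 3.63 TPM with mCherry and 1.46 and 1.40 TPM with Rnaseh1 and fell by 0.77 (SE 0.25, adjusted p = 0.0299). This call was lost with median centring (-0.18), with quantile normalization (-0.14), with no filter, and without Rnaseh1 replicate 1, Rnaseh1 replicate 2 or mCherry replicate 2, and with the filter raised to 5 TPM Kif3b was not tested. Kif9, a motor of motile cilia, did not pass and stood at 9.98 to 11.1 TPM with Rnaseh1 and 13.01 to 15.7 TPM with mCherry.

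Of the 7 transport kinesins, 3 fell and 0 rose, where 46.2% and 20.3% of all genes did. Median centring gave 1 and 2, quantile normalization 1 and 3, and the removal of the GC trend 2 and 0. The 3 that fell in the TPM as deposited were Kif3c, at 2.95 and 1.87 TPM with mCherry, 0 and 0.03 TPM with Rnaseh1, and 1.67 and 1.31 TPM with Rnaseh1 and Supt6, and the endosomal motors Kif13a and Kif13b. Kif3c and Kif13a passed the filter only through libraries of the other groups, since neither Rnaseh1 library reached a TPM of 1. Exons of Kif3c overlap those of the antisense gene 1110002L01Rik over 2617 bases. Kif5b, the widespread heavy chain of conventional kinesin, was at 12.45 to 19.8 TPM over the 6 libraries, and it, Kif5c, Kif1b and Kif16b did not pass in the TPM as deposited. Kif5b was called lower with the GC trend removed (-1.07) and higher with quantile normalization (0.54). Kif5c and Kif16b were called higher with median centring and quantile normalization. Kif13a and Kif13b were not called under any of the 3 scalings, nor without mCherry replicate 2.

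**Figure D2:**
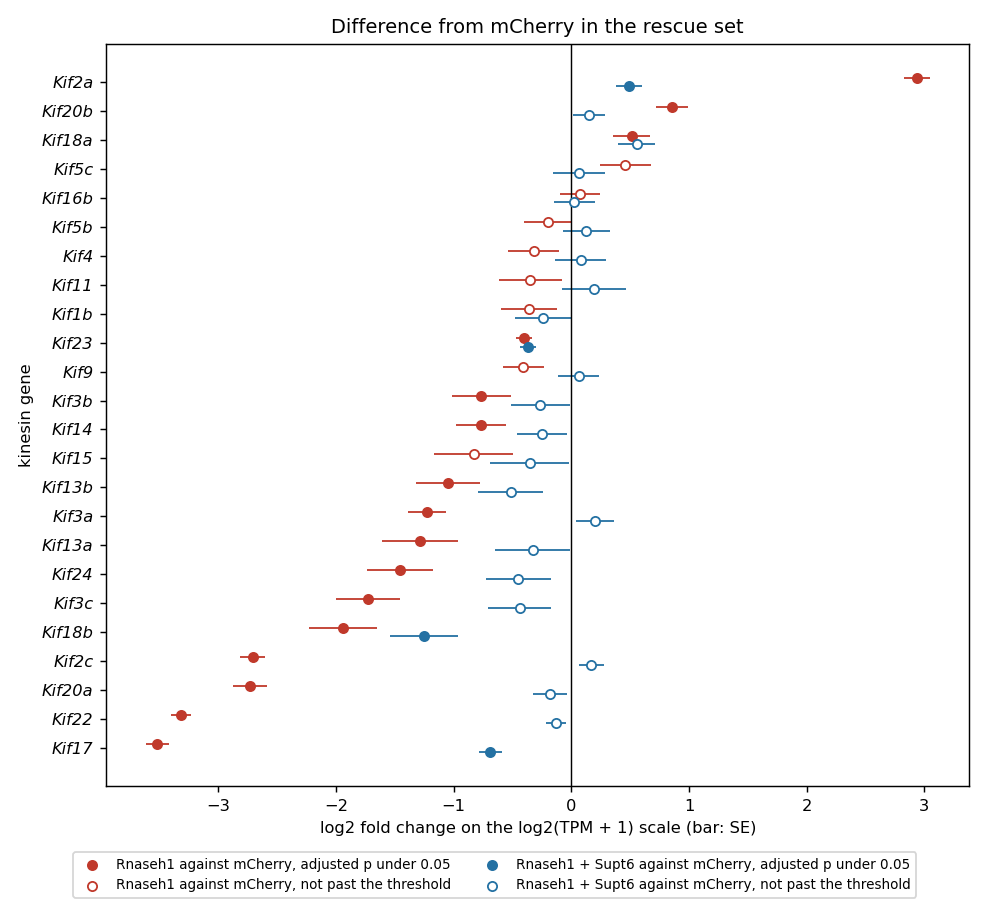
Log2 fold change against mCherry of the 24 kinesin genes, on the log2(TPM + 1) scale with the SE as a bar, for Rnaseh1 and for Rnaseh1 with Supt6, which share the mCherry libraries. Filled circles passed an adjusted p of 0.05, which 16 genes did with Rnaseh1 and 4 with Rnaseh1 and Supt6.

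The scaling of the libraries moved the counts of this comparison. Median centring and quantile normalization brought the median log2 fold change over all genes from -0.52 to 0.06 and 0.05, and the share of calls that were higher from 30.5% to 52.5% and 51.6% over all genes. The removal of the GC trend kept the mean of each library. Its median over all genes was -0.59, and 24.2% of its calls were higher. The members called were then 5 higher and 8 lower with median centring, and 6 higher with quantile normalization. Kif22, Kif17, Kif2c, Kif20a, Kif3a, Kif18b and Kif24 were called lower and Kif2a higher under these scalings, with the GC trend removed, and without each of the 4 libraries in turn. For the transport kinesins the median turned from -0.36 to 0.22 with median centring and 0.41 with quantile normalization, and was -0.53 with the GC trend removed.

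The difference between Rnaseh1 and mCherry ran with transcript GC content. Across 23 members, Spearman's rho of the log2 fold change with the GC content of the longest annotated transcript was -0.80, and it was -0.49 across 11803 genes, all values being taken from the same 4 libraries. With all genes split into 10 bins of equal size by GC content, the median difference was 0.43 in the GC-poorest bin and -1.59 in the GC-richest. Kif22, with a GC content of 49.0%, lay at percentile 1.9 of the log2 fold changes of its own bin, Kif20a (48.4%) at 2.7, Kif2c (50.3%) at 6.8 and Kif17 (60.1%) at 10.4. Kif2a, with 38.6%, lay at percentile 98.6. These genes were picked by the same log2 fold changes, so their percentiles are not independent of that choice. By definition, 10% of all genes lie below percentile 10 of their bin. Kif20b and Kif18a, with 39.4% and 38.2%, lay at 66.2 and 53.6, inside the range of their bin. The part of GC content in these differences was not tested beyond the removal of its trend.

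**Figure D3:**
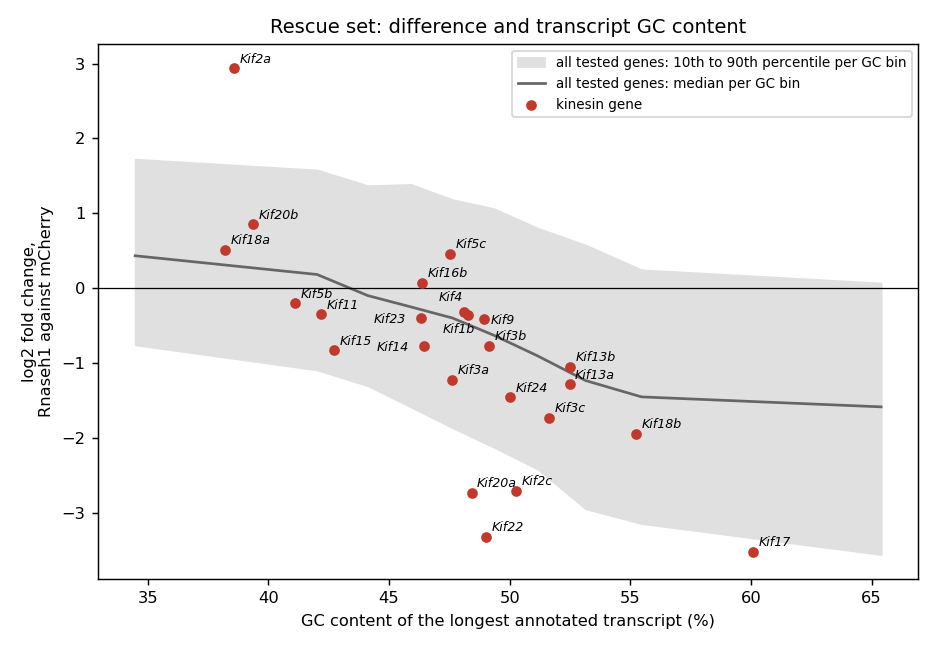
Log2 fold change of Rnaseh1 against mCherry in the rescue set against the GC content (%) of the longest transcript, with 1 red point per kinesin gene. The line and grey band give the median and the 10th to 90th percentile of all tested genes in each of 10 GC bins. By construction, 10% of all tested genes lie below the band and 10% above it. Kif22, Kif20a and Kif2c lie below the band and Kif2a above it, with Kif17 at its lower edge.

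Markers of other cell types were also set beside this comparison. The sum of 5 endothelial markers was 10.1 and 15.4 TPM with Rnaseh1, 34.3 and 38.4 TPM with mCherry and 35.1 and 36.9 TPM with Rnaseh1 and Supt6, with 2 or 3 of 5 at a TPM of at least 1. The sum came from Pecam1 (5.52 to 31.8 TPM over the 6 libraries) and Tek (3.54 to 5.75 TPM), while Kdr and Egfl7 reached at most 1.07 and 0.47 TPM and Cdh5 was listed at 0 in all 6 libraries. The sum of 12 oocyte markers was 5201 and 4978 TPM with Rnaseh1, 16299 and 17274 TPM with mCherry, and 16325 and 17131 TPM with Rnaseh1 and Supt6. The oocyte markers did not vary alike over the 6 libraries. Gdf9 ran from 1170 to 7397 TPM, Zp3 from 567 to 4054 TPM and Zp1 from 117 to 1381 TPM. Bmp15 (927 to 1310 TPM), Oosp1 (959 to 1698 TPM) and Figla (89.7 to 113 TPM) varied less. Granulosa and cumulus markers summed to 45.3 to 54.7 TPM over the 6 libraries. The sum of 5 immune markers was 0.1 and 0 TPM with Rnaseh1, 3.16 and 4.21 TPM with mCherry and 2.47 and 1.9 TPM with Rnaseh1 and Supt6. This sum came mostly from Cd68 (0 to 4.21 TPM over the 6 libraries). C1qa and Ptprc reached at most 0.27 and 0.05 TPM, and Adgre1 and Lyz2 were listed at 0 in all 6 libraries. The part of these marker differences in the kinesin results was not tested.

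Rnaseh1 with Supt6 was compared with both other groups, and these comparisons share libraries with the one above. Against Rnaseh1 alone, 8 members were called higher and 2 lower, where 41.6% and 17.4% of all genes were (58.9% in either direction), and the median log2 fold change was 0.51 over the members and 0.44 over all genes. Groups did not overlap for 16 members that were higher and 3 that were lower, where 54.5% and 25.5% of all genes were so. The higher members with the smallest p were Kif22 (log2 fold change 3.19, SE 0.09, adjusted p = 1.25e-06), Kif17 (2.83, SE 0.10), Kif2c (2.88, SE 0.11), Kif20a (2.55, SE 0.15), Kif3a (1.43, SE 0.16) and Kif3c (1.29, SE 0.27, adjusted p = 0.00523). Kif3c and Kif13a, both among the 8, passed the filter only through the groups where they were higher. Their calls are therefore not independent of the filter. Kif2a fell by 2.44 (SE 0.11, adjusted p = 4.46e-06) and Kif20b by 0.70 (SE 0.13, adjusted p = 0.00346), the latter turning to 0.091 with the GC trend removed. Kif22, Kif17, Kif2c, Kif20a, Kif3a and Kif2a kept their calls under each of the 3 scalings and without each of the 4 libraries in turn. Median centring turned the all-gene median to -0.07 and gave 5 members higher and 6 lower. The removal of the GC trend gave 13 and 1, with an all-gene median of 0.47.

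Against mCherry, Rnaseh1 with Supt6 left 1 member higher and 3 lower, where 5.71% of all genes were higher and 7.6% lower (13.3% in either direction). Groups did not overlap for 3 members that were higher and 8 that were lower, where 26.8% and 34.5% of all genes were so. Kif2a rose by 0.49 (SE 0.11, adjusted p = 0.0324), Kif17 fell by 0.69 (SE 0.10, adjusted p = 0.00902), Kif23 by 0.37 (SE 0.07, adjusted p = 0.0185) and Kif18b by 1.26 (SE 0.29, adjusted p = 0.0335). Leaving out any 1 of the 4 libraries ended all 4 calls. Kif22 stood at -0.13 (SE 0.09, adjusted p = 0.393), Kif2c at 0.17 (SE 0.11, adjusted p = 0.361) and Kif20a at -0.18 (SE 0.15, adjusted p = 0.497), none of which passed. A missed threshold does not show that these levels were equal.

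The partners of the kinesins were read in the same rescue libraries, where 20.3% of all genes rose and 46.2% fell with Rnaseh1. Of 12 tubulin genes tested, 12 fell with Rnaseh1 against mCherry, also under each of the 3 scalings, and 12 rose with Supt6 against Rnaseh1 alone (11 under each of the 3 scalings). Tubb2a, a beta-tubulin, went from 1055 and 1049.8 TPM with mCherry to 131 and 115 TPM with Rnaseh1 and 519 and 535 TPM with Supt6 added, and Tubb2b from 169 and 155 TPM to 5.98 and 4.89 TPM and 40.4 and 38.8 TPM. Both were lowest with Rnaseh1, and with Supt6 added both remained below mCherry. These paralogs are near-identical, so reads may have been divided between them.

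Of 7 light chains and cargo adaptors tested, 6 fell and 1 rose with Rnaseh1, and 5 and 1 under each of the 3 scalings. Klc1, a light chain that binds cargo for conventional kinesin, went from 33.5 and 29.4 TPM to 8.67 and 10.8 TPM, and with Supt6 added stood at 25.9 and 25.7 TPM. Klc4, another light chain, went from 7.81 and 6.87 TPM to 0.42 and 0.25 TPM, and stood at 2.20 and 2.29 TPM with Supt6 added. Of 10 central spindle partners, 7 fell and 1 rose, where median centring gave 5 and 4, quantile normalization 6 and 2, and the removal of the GC trend 7 and 0. The lower ones included Plk1, a mitotic kinase that docks on central spindle kinesins, from 243 and 249 TPM to 11.7 and 13.9 TPM, and Aurkc, a germ cell kinase of the passenger complex, from 627 and 619 TPM to 148 and 193 TPM.

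Of 15 spindle microtubule proteins, 10 fell and 3 rose, where median centring gave 8 and 6, quantile normalization 9 and 4, and the removal of the GC trend 11 and 1. Among them was Tacc3, which helps to build spindle microtubules, at 1055 and 1121 TPM with mCherry and 404 and 429.6 TPM with Rnaseh1. Mapre2, a plus-end binding protein, stood at 89.0 and 103 TPM and 23.2 and 24.2 TPM. Dynein and dynactin genes, the motor of opposite polarity, went both ways, with 8 of 23 higher and 9 lower, and their median of -0.34 was 0.24 with median centring, -0.06 with quantile normalization and -0.31 with the GC trend removed. The dynactin subunit Actr1a fell by 3.03 and the dynein regulator Ndel1 by 2.46. Of 4 kinesins outside the Kif symbols, 3 fell and 0 rose (2 and 1 with median centring and with quantile normalization, 2 and 0 with the GC trend removed), among them the minus-end motors Kifc3, from 34.4 and 38.2 TPM to 1.96 and 1.18 TPM, and Kifc1, from 64.8 and 62.7 TPM to 34.4 and 31.95 TPM. With Supt6 added, Kifc3 stood at 9.89 and 9.36 TPM and Kifc1 at 29.7 and 28.55 TPM. Against Rnaseh1 alone Kifc3 rose, and Kifc1 did not pass (-0.18, adjusted p = 0.213). In the staged set, 0 genes of these 6 lists were called.

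In the staged set, 2 groups held libraries that stood apart, and this comes before its comparisons. Between the replicates of SN mCherry, 8 of 23 members differed by more than 1 on the log2 scale, and between those of NSN Rnaseh1 9 did, against 32.1% and 45.3% of all genes. In the other 5 groups, rescue groups included, 0 members did, against 1.89% to 10.9% of all genes. In SN mCherry replicate 2 the genes Kif22 (497 TPM against 68.65 TPM in replicate 1), Kif17 (80.8 against 13.7 TPM), Kif2c (106 against 20.98 TPM) and Kif20a (64.85 against 17.8 TPM) were higher, and Kif2a was lower (22.6 against 91.3 TPM). In NSN Rnaseh1 replicate 2, Kif17 (2.75 TPM against 27.25 TPM in replicate 1), Kif2c (6.17 against 31.45 TPM), Kif22 (39.0 against 101 TPM) and Kif20a (8.30 against 22.1 TPM) were lower, and Kif2a was higher (129 against 61.1 TPM).

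These differences between replicates followed the rescue comparison across the 23 members tested in both tables. The SN mCherry difference, replicate 2 minus replicate 1, had Pearson's r of -0.87 (Spearman's rho -0.82) with the rescue difference of Rnaseh1 minus mCherry, and the NSN Rnaseh1 difference had r of 0.82 (rho 0.74). Across 11803 genes, r was -0.74 and 0.63. The replicate differences of NSN mCherry and SN Rnaseh1 had r of 0.42 and 0.22 across the members. No library is shared between the quantities related. Across the members, rho with GC content was 0.70 for the SN mCherry difference and -0.73 for that of NSN Rnaseh1, and -0.26 and -0.18 for those of NSN mCherry and SN Rnaseh1. The sum of the oocyte markers was 6249 and 17795 TPM in SN mCherry and 12605 and 5248 TPM in NSN Rnaseh1, replicate 1 given first. Over the staged libraries Gdf9 ran from 899 to 7765 TPM and Zp3 from 328 to 4443 TPM. Bmp15 (654 to 1248 TPM) and Oosp1 (1373 to 2063 TPM) varied less. The part of GC content and of these marker levels in the relations was not tested.

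**Figure D4:**
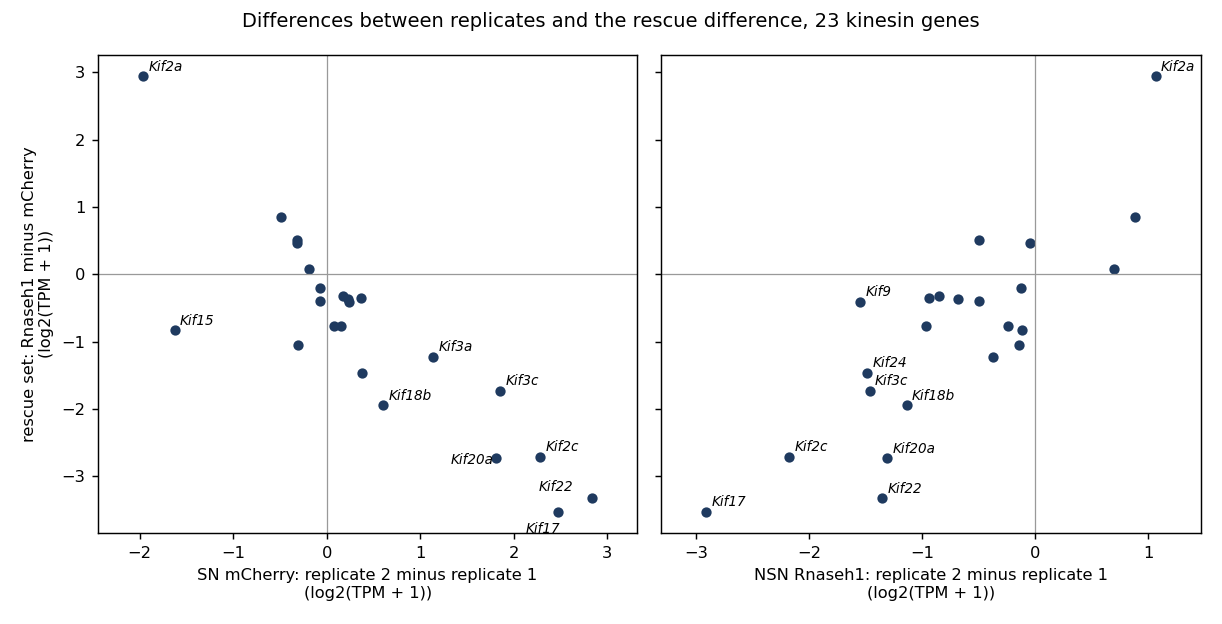
Difference between the replicates of SN mCherry (left) and NSN Rnaseh1 (right), on the horizontal axis as replicate 2 minus replicate 1 in log2(TPM + 1), against the rescue difference of Rnaseh1 minus mCherry, with 1 point for each of 23 kinesin genes. Kif22, Kif17, Kif2c and Kif20a lie together at the end opposite to Kif2a in both panels, with r of -0.87 on the left and 0.82 on the right.

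No kinesin passed the threshold in any of the 5 comparisons of the staged set. In each of them limma called 0 members of 23 and 0 of 12736 genes (0%). Rnaseh1, the overexpressed gene itself, was not called either. With Rnaseh1 against mCherry it stood at 3.55 (SE 0.57, adjusted p = 0.407) in SN and 1.76 (SE 0.57, adjusted p = 0.755) in NSN oocytes. The absence of calls therefore does not show that kinesin levels were unchanged. At an unadjusted p under 0.05, all genes numbered 353 (2.77%) for Rnaseh1 in NSN oocytes, 859 (6.74%) for Rnaseh1 in SN oocytes, 328 (2.58%) for SN against NSN with mCherry, 584 (4.59%) for SN against NSN with Rnaseh1, and 288 (2.26%) for the difference between the stage-specific effects of Rnaseh1. The members numbered 0, 2, 0, 0 and 0. Without NSN Rnaseh1 replicate 1, 95 genes were called higher and 1008 lower with Rnaseh1 in NSN oocytes, and 97 higher and 5 lower in SN against NSN with Rnaseh1, with 0 members among them. Without NSN Rnaseh1 replicate 2, 1 gene was called in the difference between the effects. The median SE over the members was 0.49 on the log2 scale for the comparisons of 2 groups, where it was 0.21 in the rescue set.

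**Figure D5:**
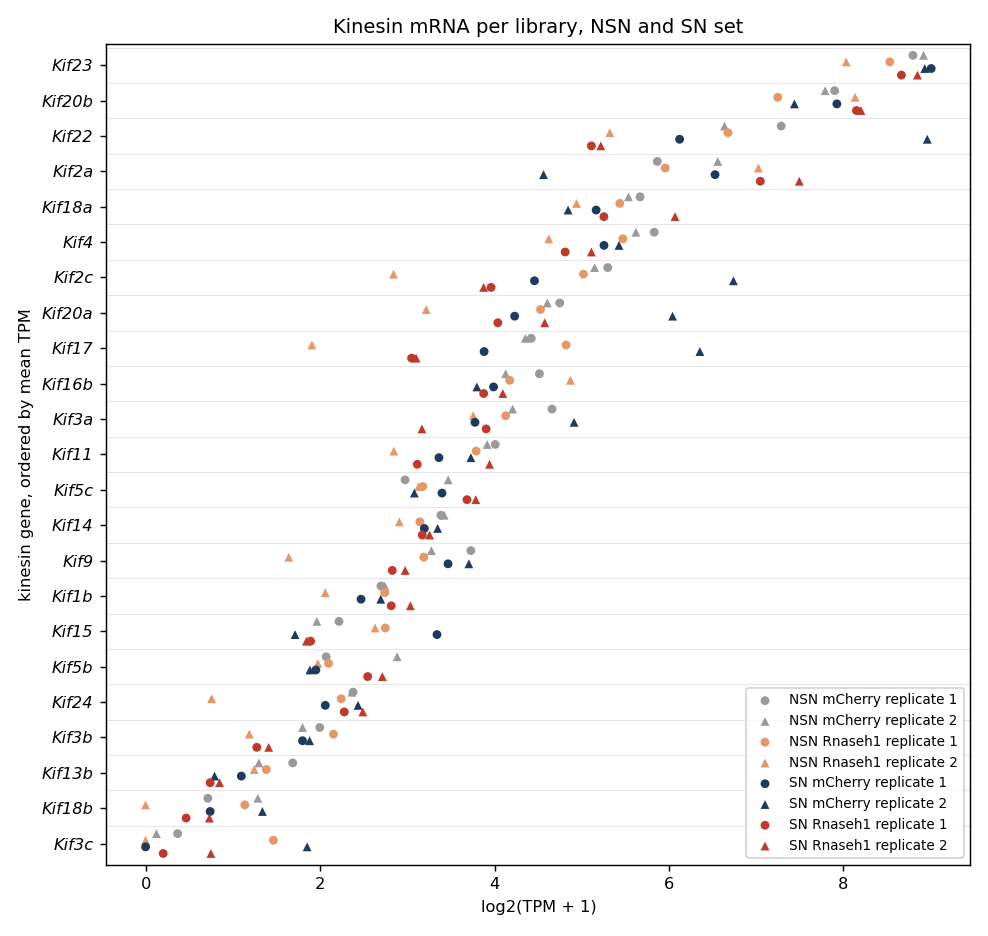
Level of each of the 23 described kinesin mRNAs in the 8 staged libraries, as log2(TPM + 1) on the horizontal axis, with genes ordered by mean TPM and 1 symbol per library. SN mCherry replicate 2 and NSN Rnaseh1 replicate 2 lie apart from the other library of their group for Kif22, Kif2c, Kif20a and Kif17.

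In SN oocytes the members with the smallest p were Kif22, Kif2a and Kif17. Kif22 stood at 33.6 and 36.2 TPM with Rnaseh1 and 68.65 and 497 TPM with mCherry, which gave -2.38 on the log2 scale (SE 0.88, adjusted p = 0.61). Kif2a stood at 131 and 179 TPM with Rnaseh1 and 91.3 and 22.6 TPM with mCherry (1.73, SE 0.68), and Kif17 at 7.28 and 7.58 TPM and 13.7 and 80.8 TPM (-2.04, SE 1.05). In all 3 the groups did not overlap, and the size depended on which SN mCherry library was kept. Without SN mCherry replicate 2 the values were -0.96 for Kif22, 0.74 for Kif2a and -0.81 for Kif17. Without SN mCherry replicate 1 they were -3.80 for Kif22, 2.71 for Kif2a and -3.28 for Kif17. Groups did not overlap for 6 members that were higher with Rnaseh1 and 8 that were lower, where 18.9% and 31.7% of all genes were so. The median was -0.21 over the members and -0.22 over all genes.

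In NSN oocytes, Kif9 stood at 8.12 and 2.12 TPM with Rnaseh1 and 12.3 and 8.69 TPM with mCherry (log2 fold change -1.09, SE 0.57, adjusted p = 0.755). Kif23 stood at 369 and 261 TPM with Rnaseh1 and 444 and 483 TPM with mCherry (-0.58, SE 0.31), and Kif4 at 43.35 and 23.6 TPM and 55.9 and 48.2 TPM (-0.68, SE 0.39). These were the members with the smallest p, and in each the Rnaseh1 libraries were below those of mCherry. Of 23 members, 1 was higher and 10 were lower without overlap, where 10.3% and 22.6% of all genes were so. The medians were -0.43 and -0.29. Kif20b stood at 151.0 and 280 TPM with Rnaseh1 and 238 and 220.4 TPM with mCherry, so that its groups overlapped.

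Between stages, no member passed with either protein. With mCherry, Kif18a was at 34.9 and 27.7 TPM in SN and 49.9 and 45.4 TPM in NSN oocytes (log2 fold change -0.60, SE 0.40), Kif13b, an endosomal motor, at 1.14 and 0.73 TPM and 2.22 and 1.46 TPM (-0.55), and Kif5b at 2.87 and 2.69 TPM and 3.20 and 6.38 TPM (-0.56), each with an adjusted p of 1. In all 3 the SN libraries were below those of NSN oocytes. Without overlap, 1 member was higher in SN and 8 were lower, where 8.43% and 19% of all genes were so. With Rnaseh1, 8 members were higher in SN and 4 lower, where 14.1% and 12.5% of all genes were so. The members with the smallest p there were Kif24, at 3.85 and 4.62 TPM in SN and 3.73 and 0.69 TPM in NSN (0.88), Kif23, at 405 and 460.1 TPM and 369 and 261 TPM (0.47), and Kif5c, a transport heavy chain, at 11.9 and 12.8 TPM and 8.05 and 7.76 TPM (0.58).

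The test of whether the effect of Rnaseh1 differed between SN and NSN oocytes called 0 members. Kif18a had the smallest p, with a difference of 1.07 (SE 0.57, adjusted p = 1). It stood at 42.3 and 29.7 TPM with Rnaseh1 against 49.9 and 45.4 TPM with mCherry in NSN oocytes, and at 37.2 and 66.2 TPM against 34.9 and 27.7 TPM in SN oocytes. Kif5b followed, with a difference of 1.15, at 3.28 and 2.93 TPM against 3.20 and 6.38 TPM in NSN and 4.84 and 5.56 TPM against 2.87 and 2.69 TPM in SN oocytes. Kif15, with -1.26, was at 5.72 and 5.19 TPM against 3.65 and 2.90 TPM in NSN and 2.71 and 2.59 TPM against 9.13 and 2.28 TPM in SN oocytes, where a single mCherry library was high. The medians were 0.30 over the members and 0.09 over all genes.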

How the data were processed

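RNA-seq of mouse oocytes was analysed from 2 tables that the authors deposited, holding TPM per gene and library. The genome mm10 and the tools DESeq2, RSEM 1.3.3, STAR 2.7.0d and Trim Galore 0.6.7 are listed, with no roles, per the submitters' processing notes. The cDNA was amplified by PCR before library construction, per the labels' protocols. Depth is unknown from TPM. Identifiers were paired with symbols through GENCODE M21 (35319 of 35389), which also gave positions and transcript GC content, and promoters came from RefSeq (GRCm38.p6).

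Each table was fitted alone with limma 3.58.1 (R 4.3.3, eBayes with a trend) on log2(TPM + 1), a scale that understates changes of low genes, with 1 mean per group and no covariate. A gene entered the test of a table when 2 or more libraries had a TPM of 1 or above, and adjusted p-values are Benjamini-Hochberg over all genes, with a threshold of 0.05. "Rose" and "fell" mean past that threshold. Fold changes are given for up to 6 members per direction with the smallest p, or the 3 with the smallest p where fewer than 3 passed, and library values also for the 5 members with the highest mean TPM. In each of 6 partner lists the 2 genes with the smallest p in the rescue comparison of Rnaseh1 with mCherry are named. Kif3b was placed with the ciliary kinesins after its values were seen. Other genes named were chosen after their values were seen. The members, lists and tests were chosen with earlier results of these data known. The script was tested on simulated data. As alternatives, the pseudocount was set to 0.1 and 5, the filter was dropped or raised to 5 TPM, and the fit was repeated with median centring, quantile normalization, removal of a GC trend (a spline with 5 degrees of freedom per library), the replicate number as a block, and leaving out each library. Protein sequences were not used here.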

Additional observations from a re-analysis of the deposited data

Results flagged for a closer look

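Kif18a went opposite ways in the 2 stages of the staged set: both NSN Rnaseh1 libraries were below both NSN mCherry libraries, and both SN Rnaseh1 libraries were above both SN mCherry libraries. In SN oocytes the nearest libraries were at 37.2 TPM with Rnaseh1 and 34.9 TPM with mCherry. Of all genes, 22.6% were lower without overlap in NSN and 18.9% higher in SN oocytes. The share of all genes with both was not counted, and Kif18a was picked from 23 members. The difference between the effects was 1.07 on the log2 scale and was tested as an interaction with limma, where it did not pass (adjusted p = 1). It ran from 0.66 to 1.48 when each of the 8 libraries was left out in turn.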

How the results depend on the processing

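With Rnaseh1 against mCherry in the rescue set, members called higher went from 3 to 5 with median centring, 6 with quantile normalization and 1 with the GC trend removed (1 also with the replicate block and the GC trend removed), and members called lower from 13 to 8 with median centring. All genes called higher went from 2608 to 4297 and 4223 with median centring and quantile normalization, and those lower from 5945 to 3894 and 3958. Kif20b turned to -0.13 and Kif18a to -0.54 with the GC trend removed, with and without the replicate block. The median over all genes was -0.59 with the GC trend removed. Leaving out 1 library gave 2 to 3 members higher and 9 to 14 lower.

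With Rnaseh1 and Supt6 against Rnaseh1, members called higher went from 8 to 5 with median centring and 13 with the GC trend removed, and members lower from 2 to 6, 5 with quantile normalization and 1 with the GC trend removed, where the replicate block with the GC trend removed also gave 13 and 1. All genes higher went from 5343 to 3370 (median centring) and 3472 (quantile normalization), and those lower from 2235 to 3855 and 3747. Kif20b turned to 0.091 with the GC trend removed, with and without the block.

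With Rnaseh1 and Supt6 against mCherry, the member called higher became 2 with the filter raised to 5 TPM, median centring, quantile normalization or the replicate block, and 0 with the GC trend removed, with or without the block. Without a filter, 412 genes were higher and 515 lower instead of 734 and 977. Leaving out 1 library gave 0 members higher and 0 lower, and 24 to 127 genes higher and 41 to 132 lower. The cause of these changes was not tested.

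In the staged set, leaving out 1 library gave 0 to 95 genes higher and 0 to 1008 lower for Rnaseh1 in NSN oocytes, 0 to 97 and 0 to 5 for SN against NSN with Rnaseh1, and 0 to 1 lower for the difference between the effects. With NSN Rnaseh1 replicate 2 and SN mCherry replicate 2 left out together, chosen after the values were seen, 1 gene was lower with Rnaseh1 in SN oocytes. No staged member passed under these settings, and the sizes moved, as for Kif22 in SN oocytes (-3.80 to -0.96) and Kif9 in NSN oocytes (-1.86 to -0.31) when a library was left out. Of the values of members named with a fold change in the rescue set, 65 of 84 kept direction and call when a library was left out and 174 of 188 under the other alternatives.

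Replicate numbers are the only link between libraries of different groups. Same-numbered libraries correlated at -0.21 to 0.17 in their deviations from the group means, and the replicate block changed no other count of calls by more than 1.5 times. A crossed block for SN against NSN with mCherry, where the correlation was -0.21, gave 0 calls, as did the fit without it. With 2 libraries per group and no depth, small differences could not be told from the spread.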
